A study of Mus musculus with 2 samples.

Results

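The genes described here are 10 genes of the hypoxia-inducible factor (HIF) pathway. They are Hif1a, Egln1, Egln3, Vegfa, Adm, Bnip3, Ankrd37, Ndrg1, P4ha1 and Car9, found by symbol among the 33696 features of the deposited matrix. Each symbol had 1 row. The cells were of KPCY 6419c5, a mouse pancreatic ductal adenocarcinoma line of a genetically engineered model that also carries a yellow fluorescent reporter. All carried the BASELINE lineage-tracing system and had received Cas12a-ABE, an adenine base editor built on Cas12a, before single cells were sorted and grown into clones. Clones 76 and 84 were mixed 1:1 after 19 days of editing and measured as 1 droplet library with the 3′ v4 chemistry. A second pool, of clones 1, 32, 33, 52 and 76, was not analysed here.

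Cells could not be assigned to a clone here, so the 2 groups compared are defined by marker counts and are called A and B, not clones. Cells were kept if they had 2000 or more unique molecular identifiers (UMIs, counts of captured RNA molecules) and 1000 or more genes, and if mitochondrial transcripts made up no more than 15% of their UMIs. A cell was an A cell if it had at least 2 UMIs summed over Pde10a, Plcb1, Galnt18, Arhgap15 and Ceacam1, and at least 3 times as many as over the B markers. B cells met the same rule for S100a7a, Rgs20, Hs6st2, Ccbe1, Ctse and Mal. Of 21361 cells kept, 7816 (36.6%) were A cells and 8936 (41.8%) were B cells. The other 4609 had too few marker UMIs or markers of both kinds. All cells shared 1 pool and 1 library, there was no replicate of either group, and no low-oxygen arm was analysed here. No test between groups was therefore possible. The intervals given are 95% intervals of the counts. They hold counting error alone and say nothing of how cultures or libraries vary.

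HIF is a transcription factor made of an oxygen-regulated alpha subunit, of which Hif1a encodes one, and a stable beta subunit. In oxygen, the prolyl hydroxylases encoded by Egln1, Egln2 and Egln3 mark the alpha subunit for destruction through the von Hippel-Lindau protein. When oxygen is low the subunit persists, binds short DNA cores in or near its targets and raises genes of blood vessel growth, glycolysis, pH control and mitochondrial turnover. The control acts mainly on the protein, so Hif1a messenger RNA is not a measure of HIF activity. Pancreatic ductal adenocarcinoma is known for poorly perfused, low-oxygen tissue, while the cells measured here were a cultured line.

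Promoter sequence is shown for 4 genes, to set the 3 that were at least 2-fold higher in A cells (Bnip3, Ankrd37 and Vegfa) beside P4ha1, which was at nearly the same level in both. The sequences are from RefSeq on build GRCm38.p6, whereas the counts were made on GRCm39. They hold up to 250 bases before the annotated start, trimmed where an annotated exon begins, and are written 5′ to 3′ on the gene's strand. The cores searched were ACGTG and GCGTG on both strands, which read CACGT and CACGC on the other strand. Capitals mark them, and matches may overlap, as in the palindrome CACGTG. The stretches lie at chr7:138909520-138909756 on the minus strand for Bnip3, chr8:45999868-46000100 on the minus strand for Ankrd37, chr17:46032378-46032627 on the minus strand for Vegfa and chr10:59323046-59323295 on the plus strand for P4ha1.
Bnip3: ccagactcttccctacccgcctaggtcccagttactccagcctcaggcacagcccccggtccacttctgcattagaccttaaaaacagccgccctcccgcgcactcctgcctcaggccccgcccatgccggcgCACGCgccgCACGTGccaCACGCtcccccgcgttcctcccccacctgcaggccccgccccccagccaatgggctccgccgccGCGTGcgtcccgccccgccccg
Ankrd37: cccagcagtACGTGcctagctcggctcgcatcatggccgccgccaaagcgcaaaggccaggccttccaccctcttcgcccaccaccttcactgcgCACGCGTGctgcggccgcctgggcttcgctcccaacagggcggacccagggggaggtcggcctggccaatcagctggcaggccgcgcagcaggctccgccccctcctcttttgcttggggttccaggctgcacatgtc
Vegfa: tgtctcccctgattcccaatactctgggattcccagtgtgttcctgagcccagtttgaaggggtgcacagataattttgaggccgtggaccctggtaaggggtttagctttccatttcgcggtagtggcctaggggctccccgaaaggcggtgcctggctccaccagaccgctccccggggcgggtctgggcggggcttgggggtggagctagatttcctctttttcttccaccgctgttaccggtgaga
P4ha1: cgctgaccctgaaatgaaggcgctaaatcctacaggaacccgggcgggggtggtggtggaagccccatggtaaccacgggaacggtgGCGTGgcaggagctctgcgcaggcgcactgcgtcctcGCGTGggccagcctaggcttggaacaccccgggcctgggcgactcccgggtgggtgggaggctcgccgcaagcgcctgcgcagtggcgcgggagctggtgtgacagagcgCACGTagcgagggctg

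The 250-base window of Bnip3 held 5 cores, 4 of them in a short stretch that includes the palindrome. Ankrd37 had 4, of which 3 are in the stretch shown. P4ha1 had 3 and the Vegfa window shown had 0, although a second annotated Vegfa start, largely inside exons, had 2. Among the 32851 promoter windows of the same length, 38.6% held at least 1 core, 16.7% at least 2 and 6.58% at least 3. Of the 10 members, 9 were in the promoter table. The remaining counts were 3 for Hif1a, 2 each for Adm and Egln1, and 1 each for Egln3 and Car9. A core was therefore present in a window of each of the 9 genes, whether or not the gene differed between A and B cells. A match is a description of the letters and not a binding site.

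The library held 116505698 UMIs in 22178 barcodes. A cells summed to 40272805 UMIs, with a median of 4699.5 per cell, and B cells to 52771426, with a median of 5440.5. The median mitochondrial share was 3.19% in A and 1.89% in B cells. All 8 ductal epithelial markers had UMIs in both groups, at 2771 CPM (a gene's UMIs per 1000000 UMIs summed over the group) in A and 7891 CPM in B cells. Of the 8 endothelial markers, 5 were seen in A and 6 in B cells, at 42.1 and 8.96 CPM, with Kdr and Emcn at 0. The fibroblast list was at 146 and 6.82 CPM, with Col1a2, Dcn and Lum at 0, and Acta2, at 144 CPM in A and 5.89 CPM in B cells, was nearly all of it. Immune, acinar, endocrine and erythroid lists summed to between 0.0947 and 13.7 CPM, with 0, 5, 4 and 3 of their markers at 0 in both groups. The part of these lists in the results was not tested. When each group marker was left out of the rule in turn, its level in the other group was 1.89% to 4.50% of that in its own.

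Of the 10 members, 3 were at least 2-fold apart between the groups, all higher in A cells: the angiogenic ligand Vegfa, the mitophagy receptor Bnip3 and the ankyrin-repeat gene Ankrd37. None of the 10 was at least 2-fold higher in B cells. Over A and B cells together, 8 members had at least 100 UMIs. Across all 12040 features with as many UMIs, 13.2% were at least 2-fold higher in A and 9.34% in B cells. With at least 10 CPM in either group, 7 members remained and 2 were higher in A cells (Vegfa and Ankrd37), beside 10.3% of 8800 features higher in A and 7.26% higher in B cells. Ankrd37 passed that filter only through A cells, the group where it is high, so its place in this count is no support. Only 3 members (Hif1a, Egln1 and P4ha1) had at least 50 CPM, and 0 of them was 2-fold apart, beside 7.6% of 3908 features higher in A and 6.68% higher in B cells. The median log2 ratio of A over B was 0.47 for the 8 members with at least 100 UMIs and 0.19 for all such features. For features with at least 50 CPM it was 0.11, so the scale itself leans slightly toward A cells. Scaling to the median ratio removed this lean and left 2 members past 2-fold, since Ankrd37 went from 1.08 to 0.97 on the log2 scale.

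**Figure D1:**
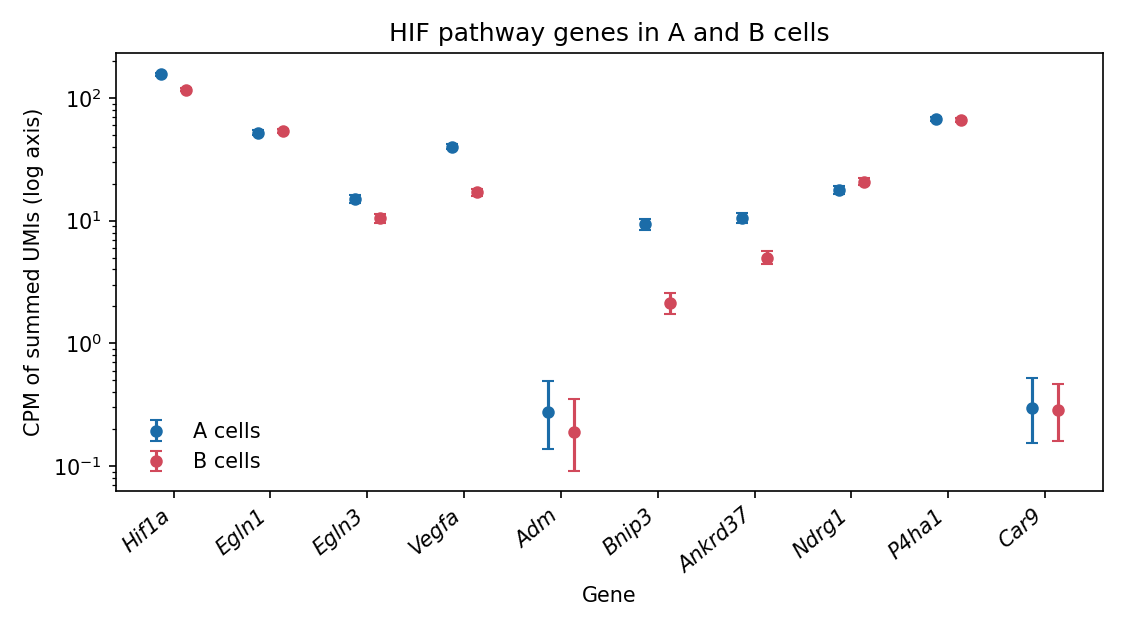
Level of each of the 10 genes in A cells (blue) and B cells (red), as CPM of the group's summed UMIs on a log axis. Bars are exact Poisson 95% intervals. Hif1a was the highest gene in both groups, at 156 and 117 CPM, and Adm and Car9 were below 0.3 CPM.

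Hif1a (ENSMUSG00000021109), the oxygen-regulated alpha subunit, was the most abundant member. It had 6286 UMIs in A cells, or 156 CPM (152 to 160.0), and 6182 in B cells, or 117 CPM (114 to 120.1). The ratio of A over B was 1.33 (1.29 to 1.38). After each cell was thinned to 3000 UMIs, 36.3% of A cells (35.2 to 37.4%) and 28.7% of B cells (27.8 to 29.7%) held a Hif1a UMI. Without thinning the shares were 51.2% and 47.7%, a narrower gap in which B cells had the greater depth. An antisense gene, Gm15283, overlaps Hif1a and had 167 UMIs over A and B cells.

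The oxygen sensors differed from each other in level and in pattern. Egln1 (ENSMUSG00000031987), the main prolyl hydroxylase acting on HIF in most tissues, was at 52.1 CPM (49.9 to 54.3) in A and 54.0 CPM (52.1 to 56.0) in B cells. Its ratio was 0.964 (0.911 to 1.02), an interval that includes 1. Scaling to the median ratio moved its log2 ratio from -0.05 to -0.16. Egln3 (ENSMUSG00000035105), the sensor that is itself a classical HIF target, was at 15.05 CPM (13.9 to 16.3) in A and 10.5 CPM (9.64 to 11.4) in B cells. That is a ratio of 1.43 (1.28 to 1.61). An Egln1 UMI was found in 14.7% of A and 15.5% of B cells at 3000 UMIs, and an Egln3 UMI in 4.51% and 3.01%.

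Vegfa (ENSMUSG00000023951), the ligand that drives blood vessel growth, had 1611 UMIs in A cells and 902 in B cells. The levels were 40.0 CPM (38.1 to 42.0) and 17.1 CPM (16.0 to 18.2), a ratio of 2.34 (2.16 to 2.54). At 3000 UMIs per cell, 10.8% of A cells (10.1 to 11.5%) and 4.81% of B cells (4.38 to 5.28%) held a Vegfa UMI. Adm (ENSMUSG00000030790), which encodes the vasodilator peptide adrenomedullin, was barely detected, with 11 UMIs in A and 10 in B cells, each in a separate cell. Its levels, 0.273 CPM (0.136 to 0.489) and 0.189 CPM (0.0909 to 0.348), do not tell the groups apart. The antisense gene Gm28863, which overlaps Adm, had 252 UMIs in A and 77 in B cells, far more than Adm itself.

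Bnip3 (ENSMUSG00000078566), which marks mitochondria for removal and promotes cell death, showed the largest ratio of the 8 members with at least 100 UMIs. It had 377 UMIs in A cells, or 9.36 CPM (8.44 to 10.4), and 112 in B cells, or 2.12 CPM (1.75 to 2.55). The ratio was 4.41 (3.56 to 5.50). At 3000 UMIs, 203 of 7406 A cells (2.74%, 2.38 to 3.14%) and 56 of 8827 B cells (0.634%, 0.480 to 0.823%) held a Bnip3 UMI. The ratio of B over A, 0.227, lay above the carry-over of the group markers. Its close relative Bnip3l, another mitophagy receptor, was at 66.7 CPM in A and 55.4 CPM in B cells, a ratio of 1.21 (1.14 to 1.27).

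Ankrd37 (ENSMUSG00000050914), a known HIF target, was at 10.6 CPM (9.60 to 11.6) in A and 5.00 CPM (4.42 to 5.64) in B cells, from 426 and 264 UMIs. The ratio was 2.11 (1.81 to 2.47). Ufsp2, a protease gene that overlaps Ankrd37 on the opposite strand, was at 67.4 CPM (64.9 to 69.97) in A and 36.1 CPM (34.5 to 37.7) in B cells, a ratio of 1.87 (1.76 to 1.98). Whether the counting used strand is not given in the sources used here, and the part of Ufsp2 reads in the Ankrd37 counts was not tested. At 3000 UMIs, 3.08% of A and 1.51% of B cells held an Ankrd37 UMI.

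The other target genes did not separate the groups by 2-fold. Ndrg1 (ENSMUSG00000005125), a stress-induced gene linked to differentiation and reduced metastasis, was at 17.7 CPM (16.4 to 19.0) in A and 20.8 CPM (19.6 to 22.1) in B cells. Its ratio of 0.8505 (0.773 to 0.935) leaned to B cells. P4ha1 (ENSMUSG00000019916), a catalytic subunit of the enzyme that hydroxylates collagen, was at 67.7 CPM (65.2 to 70.3) in A and 65.9 CPM (63.8 to 68.2) in B cells. Its ratio was 1.03 (0.976 to 1.08). Car9 (ENSMUSG00000028463), a membrane carbonic anhydrase used as a marker of hypoxic tumour tissue, had 12 UMIs in A and 15 in B cells, at 0.298 and 0.284 CPM.

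**Figure D2:**
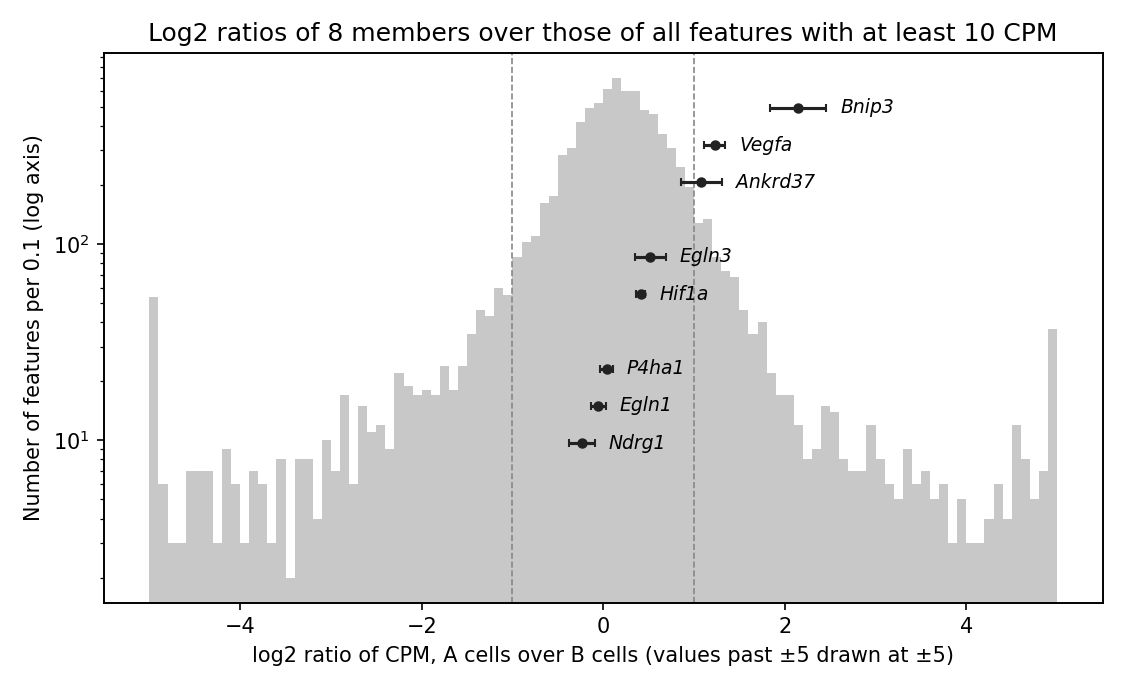
Log2 ratio of CPM in A over B cells for the 8 members with at least 100 UMIs (points, with 95% counting intervals, at arbitrary heights) over a histogram of all 8800 features with at least 10 CPM in either group (grey, log axis). Bnip3, at 9.36 CPM in A and 2.12 CPM in B cells, is not itself among those features. Dashed lines mark 2-fold. Bnip3, Vegfa and Ankrd37 lie right of the upper line, at 2.14, 1.23 and 1.08, while Ndrg1, Egln1 and P4ha1 lie between -0.23 and 0.04.

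These levels count the 3′ ends of transcripts, which do not scale with transcript length, and were not divided by it. The order was Hif1a, P4ha1, Egln1, Vegfa, Ndrg1, Egln3, Ankrd37, Bnip3, Car9 and Adm in A cells. It was Hif1a, P4ha1, Egln1, Ndrg1, Vegfa, Egln3, Ankrd37, Bnip3, Car9 and Adm in B cells. The intervals of Ankrd37 and Bnip3 overlapped in A cells, as did those of Car9 and Adm in both groups. Most cells held 0 UMIs of a given member at 3000 UMIs per cell, and most cells with any held 1. The variance of UMIs per cell over their mean, which is 1 for random sampling, ran from 0.984 (Egln3) to 1.19 (Ndrg1) in thinned A cells and from 0.989 (Egln1) to 1.17 (Ndrg1) in thinned B cells. At that depth Ndrg1 was the least evenly spread member in both groups. Before thinning, Hif1a had the highest count in 1 A cell, 9 UMIs, and Ndrg1 in 1 B cell, 10 UMIs.

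The 2 groups differed in depth and mitochondrial share, so the 3 leading ratios were read again in cells within a set range of each. Within 4000 to 6000 UMIs the log2 ratio was 1.35 for Vegfa, 2.50 for Bnip3 and 1.14 for Ankrd37. In cells with a mitochondrial share of 1.5 to 3% it was 1.20, 1.95 and 0.72, so Ankrd37, at a ratio of 1.65, was no longer past 2-fold there. That range held 2817 of 7816 A cells and 7626 of 8936 B cells. With medians of 3.19% in all A and 1.89% in all B cells, shares within the range need not be equal. Ndrg1 leaned further to B cells in the cells of that mitochondrial range, at -0.61, against -0.23 in all cells. The log2 ratio of Hif1a was 0.28 within 4000 to 6000 UMIs and 0.40 in the cells of that mitochondrial range.

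The rest of the HIF machinery showed no gene past 2-fold among the 7 of 16 with at least 50 CPM, beside 7.6% of all such features higher in A and 6.68% in B cells, and their median log2 ratio was -0.02. The most abundant were Elob, Rbx1 and Eloc, parts of the ligases that include the von Hippel-Lindau complex, with ratios of 0.984, 0.987 and 0.911. With at least 100 UMIs, 15 genes were counted, with 1 higher in A and 1 in B cells, beside 13.2% and 9.34% of all such features. Epas1, the gene of the second alpha subunit, HIF-2 alpha, was at 10.1 CPM in A and 1.52 CPM in B cells, a ratio of 6.68 (5.25 to 8.60). Arnt2, a relative of the beta subunit gene, had 6 UMIs in A and 328 in B cells, a ratio of B over A of 41.7 (19.0 to 114.5). Its ratio of A over B, 0.0240, lies within the carry-over of the group markers. The source of the 6 UMIs in A cells was not tested, so the size of the fold is uncertain. The usual beta subunit gene Arnt was at 42.0 and 37.4 CPM. Egln2, the remaining hydroxylase of this family, was at 37.7 and 25.03 CPM, a ratio of 1.51 (1.40 to 1.62), and Vhl was at 12.2 and 9.63 CPM.

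The glycolytic target genes were close to level at the median. Of 10 with at least 50 CPM, 0 was at least 2-fold higher in A and 1, Pgk1, was higher in B cells, beside 7.6% and 6.68% of all such features. Pgk1, which makes ATP in glycolysis, was at 317 CPM in A and 812 CPM in B cells, a ratio of B over A of 2.56. The median log2 ratio of the 10 was -0.09. The most abundant were Gapdh at 2579 and 2920.2 CPM, Ldha at 1241 and 726 CPM, and Pkm at 823 and 904 CPM. Only Ldha, which turns pyruvate into lactate, leaned to A cells among these, at a ratio of 1.71. With at least 100 UMIs, Aldoc (2.75) and Pdk1 (2.59) were also past 2-fold, both higher in A cells, among 17 genes. Over all features with as many UMIs, 13.2% were 2-fold higher in A and 9.34% in B cells.

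Other HIF target genes were higher in A cells in some cases and in B cells in others. Of 10 with at least 50 CPM, 1 was at least 2-fold higher in A and 2 in B cells, beside 7.6% and 6.68% of all such features, and the median log2 ratio was -0.21. Stc2, a secreted glycoprotein gene, was at 100.7 CPM in A and 13.1 CPM in B cells. It passed the filter only through A cells, the group where it is high, so its place in this count is no support. Ier3, an early response gene, was at 84.2 and 250.2 CPM, and alone of the 2 higher in B cells passed the filter in both groups. The most abundant of the list, Mif, Fam162a and Tfrc, had ratios of 1.71, 1.21 and 1.04.
With at least 100 UMIs, 7 of 27 were higher in A and 5 in B cells, and the median was 0.27, beside 13.2% and 9.34% of all features with as many UMIs and their median of 0.19. The 7 were Stc1, Stc2, Gys1, Gbe1, Tmem45a, Vldlr and Selenbp1, and among them Gys1 (2.16) and Gbe1 (3.26) build glycogen. Hilpda, Bhlhe40, Angptl4 and Ier3 were among the 5. Hilpda and Angptl4, which act in lipid storage and lipoprotein uptake, were 2.44-fold and 4.34-fold higher in B cells.

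Relatives and partners of the members were counted as a separate list of 25 genes. With at least 50 CPM, 5 were tested, 0 was higher in A and 1, the carbonic anhydrase gene Car2, was higher in B cells, at 103 against 39.4 CPM, beside 7.6% and 6.68% of all such features. Car2 passed that filter only through B cells, the group where it is high, so its place in this count is no support. The median log2 ratio was 0.12. P4hb, the partner subunit of P4ha1, was at 274 and 306 CPM, and the VEGF co-receptor Nrp1 at 111 and 56.0 CPM, a ratio of 1.98 (1.89 to 2.08). With at least 100 UMIs, 17 genes were tested, with Vegfd, Ramp3 and P4ha3 higher in A and Vegfc and Car2 higher in B cells. Those counts, 3 and 2 of 17, stand beside 13.2% and 9.34% of all such features. Kdr, the main signalling receptor of VEGF-A, had 0 UMIs in both groups, below the level that 3 UMIs give, 0.0745 CPM in A and 0.0568 CPM in B cells. Flt1, the other receptor, had 4 UMIs in A and 27 in B cells.

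Co-expression of the members within a group was weak. In 7406 A cells thinned to 3000 UMIs, the 28 pairs among the 8 members with at least 100 UMIs had a median Pearson r of 0.0170, from -0.00839 to 0.0435. In 8827 B cells it was 0.00417, from -0.0134 to 0.0254. These r are of log(1 + UMI) over cells of 1 library that share their depth, and in counts this sparse an r of such size is no finding. More cells held UMIs of both genes than the 2 shares alone give in 23 of 28 pairs in A and 20 of 28 in B cells.

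Only 3 pairs in A cells and 1 in B cells had a counting interval wholly above the number that independent genes would give. Ndrg1 and Ankrd37 were seen together in 24 A cells against 11.1, a ratio of 2.16 (1.38 to 3.21). In B cells the same pair was seen in 6 cells against 6.95. Vegfa and Ndrg1 were together in 56 A cells against 39.0 (1.43, 1.08 to 1.86), and Egln1 and Ankrd37 in 47 against 33.5 (1.40, 1.03 to 1.87). The B pair was Egln3 and Ankrd37, in 9 cells against 4.01 (2.25, 1.03 to 4.26). Bnip3 and Vegfa, both higher in A cells, were together in 21 A cells against 22.0, so within A cells they were not found in the same cells more often than their shares give.

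**Figure D3:**
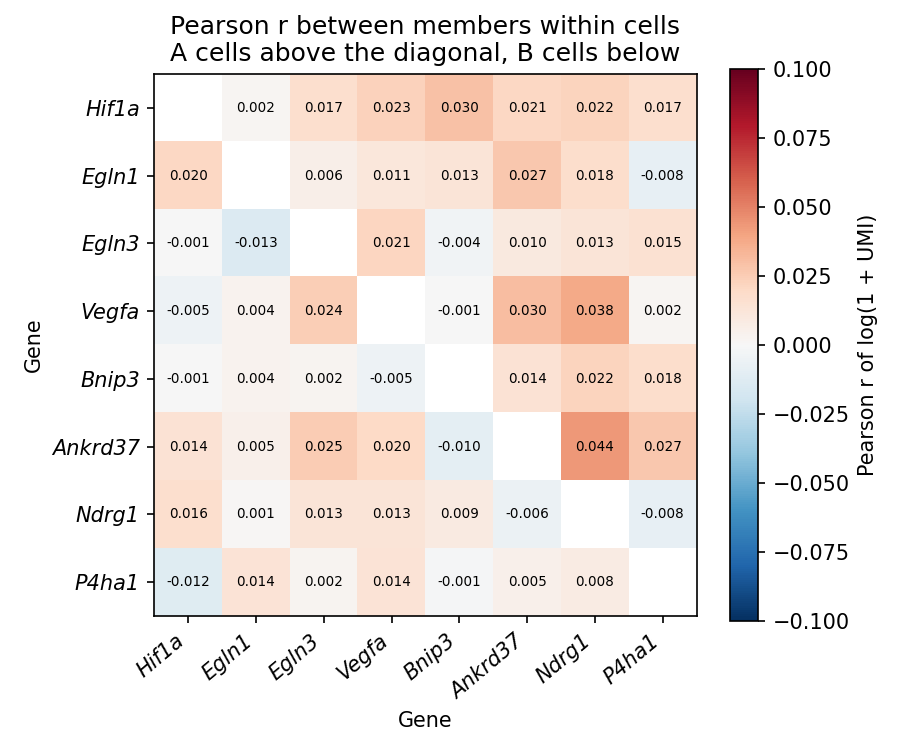
Pearson r of log(1 + UMI) for each pair of the 8 members with at least 100 UMIs, in cells thinned to 3000 UMIs, with 7406 A cells above the diagonal and 8827 B cells below. The colour scale ends at 0.1, and the highest value is 0.0435, for Ndrg1 and Ankrd37 in A cells.

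Counting how many of the 9 genes other than Hif1a were seen per cell gave the same picture. In A cells 54.1% showed 0 of them, 34.8% showed 1, 9.33% showed 2 and 1.61% showed 3. Independent genes with the same shares would give 53.2%, 36.0%, 9.48% and 1.25%. At least 4 were seen in 14 A cells against 6.92, and in 4 B cells against 2.50. Of the 10 genes, Ankrd37 had the highest r with the sum of the other targets in A cells, 0.0607, and Vegfa in B cells, 0.0244.

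The features most like the summed 9 targets were ranked by the lower of their r in A and B cells. The 10 highest were Nupr1, Aff4, Sprr1a, Sqstm1, Gsto1, Onecut2, mt-Nd2, Map1lc3b, Hagh and Fndc3b. Nupr1, a stress-induced nuclear protein gene, led with r of 0.115 in A and 0.0404 in B cells. The tenth, Fndc3b, had 0.0358 and 0.0293, and 99% of the 3905 features had a lower value under 0.0222. Among single members, the highest such value was that of Ndrg1 with Nupr1, at r of 0.112 in A and 0.0996 in B cells, followed by Ndrg1 with the cornified-envelope gene Sprr1a, at 0.0816 and 0.0708. Vegfa was most like Malat1 (0.0675 and 0.0503) and Map1lc3b, and Bnip3 most like Gm5886 and Malat1. Mgat5 was among those most like Hif1a, at 0.0458 and 0.0374. Egln1 was most like Chaf1a and Chaf1b, which encode subunits of a chromatin assembly factor of DNA replication, at 0.0268 and 0.0295 in A cells. Egln3 was most like Krt19 and Ptms, Ankrd37 most like Plin3 and Krt19, and P4ha1 most like Camk2d and Rtn4. Each feature was picked as the highest of all compared. At r as low as those of Egln1, Egln3, Ankrd37 and P4ha1, such a pick is no finding. Adm (Prom1 and Akr1b8) and Car9 (Brd7 and Selenoh) rest on a handful of UMIs.

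Cells were then ranked by a hypoxia score that held no member. It summed the UMIs of 49 other glycolytic and HIF target genes in cells thinned to 3000 UMIs, and the ranked cells were divided into 5 equal groups. Gapdh made up 27.3% of the score in A cells, Mif 18.8% and Ldha 13.2%. From the lowest to the highest of the 5 groups of A cells, Bnip3 was at 6.07, 8.78, 8.55, 9.23 and 15.3 CPM, a ratio of highest over lowest of 2.52 (1.59 to 4.10). Ankrd37 was at 10.6, 7.65, 6.08, 10.1 and 20.7 CPM, a ratio of 1.96 (1.36 to 2.85). For Egln3 the levels were 11.7, 12.8, 14.4, 15.1 and 22.3 CPM, a ratio of 1.91 (1.35 to 2.72). These 3 genes and Ndrg1 (15.3 to 23.2 CPM, 1.52, 1.11 to 2.09) were at least 1.5-fold higher in the highest group. Without the glycolysis genes in the score, Egln3 went to 1.39 (0.998 to 1.95) and 3 genes were past 1.5-fold. With Scrublet-marked barcodes removed 3 were past it as well, with Ndrg1 at 1.48. For Ankrd37 the interval of the highest group lay above those of the other 4, while for Bnip3 and Egln3 it overlapped that of the next group.

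In A cells the ratio for Vegfa was not resolved from 1, at 41.4 CPM in the lowest and 44.3 CPM in the highest group (1.07, 0.872 to 1.32). With the glycolysis genes left out of the score, it was at 38.5 and 49.5 CPM (1.29, 1.05 to 1.58), an interval above 1. Hif1a was at 147 and 185 CPM (1.26, 1.13 to 1.40), P4ha1 at 65.0 and 79.9 CPM (1.23, 1.05 to 1.44) and Egln1 at 53.5 and 56.9 CPM (1.06, 0.888 to 1.28). Without the glycolysis genes in the score Hif1a went to 1.06 (0.9501 to 1.17), an interval that includes 1. Ufsp2, the gene overlapping Ankrd37, was at 64.1 and 63.2 CPM (0.987, 0.834 to 1.17), and its part in the Ankrd37 counts was not tested. Among 9837 features with at least 40 UMIs in the 2 outer groups, 1.72% were at least 1.5-fold higher in the highest group of A cells, beside 4 of 8 members. The 5 groups were alike in mitochondrial share, at 3.13% to 3.19%, but the G2/M list was lower in the highest group, at 2312 CPM against 3067 CPM in the lowest. Its part in these results was not tested.

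In B cells, Ndrg1 was at 15.9, 20.4, 15.5, 17.8 and 26.6 CPM from lowest to highest group, a ratio of 1.68 (1.27 to 2.23). In the same ranking of B cells the G2/M list was at 2277 CPM in the lowest and 1925 CPM in the highest group. Some state genes of A cells were higher in the highest group, S100g at 3.96 and 9.07 CPM (2.29, 1.34 to 4.02) and Acta2 at 3.21 and 8.12 CPM (2.53, 1.41 to 4.73). Their part in the B results was not tested. Bnip3 was at 1.32 and 3.21 CPM in the outer groups, from 7 and 17 UMIs, a ratio of 2.43 with an interval of 0.958 to 6.93. With Scrublet-marked barcodes removed it was 1.501 (0.564 to 4.23), and without the glycolysis genes in the score 1.73 (0.782 to 4.02). The ratio was 1.34 (0.987 to 1.82) for Vegfa, 1.09 (0.749 to 1.58) for Egln3 and 1.12 (0.630 to 2.00) for Ankrd37. Of the 7 members with at least 40 UMIs in the outer groups, 1 (Ndrg1) was at least 1.5-fold higher, beside 1.19% of 9847 features. With the glycolysis genes left out of the score, Ndrg1 in B cells went to 1.15 (0.872 to 1.52), whereas in A cells it went to 2.02 (1.47 to 2.81). With cells thinned to 5000 UMIs, Ndrg1 in B cells was at 1.32 (1.02 to 1.71), under 1.5-fold. Without the A cells of the S100g and Epcam state, described next, Ndrg1 in A cells went to 1.15 (0.783 to 1.71), while Bnip3 was at 2.39 and Ankrd37 at 1.87.

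**Figure D4:**
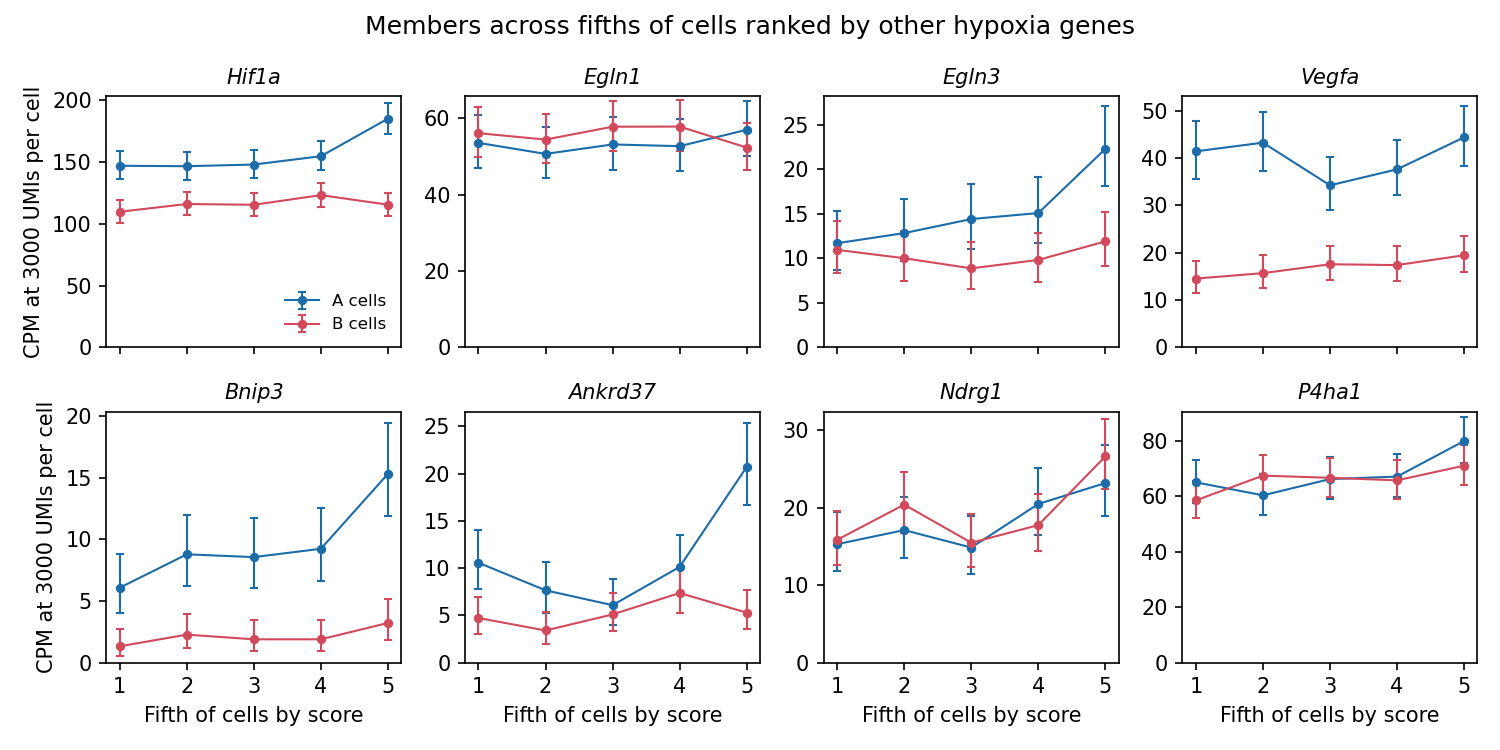
Level of 8 members in 5 equal groups of cells ranked by the summed UMIs of 49 other hypoxia genes, in A cells (blue) and B cells (red). The horizontal axis is the rank group from 1 (lowest) to 5 (highest) and the vertical axis is CPM in cells thinned to 3000 UMIs, with exact Poisson 95% intervals. In A cells Bnip3, Ankrd37 and Egln3 were highest in group 5, at 15.3, 20.7 and 22.3 CPM, while Vegfa ranged from 34.2 to 44.3 CPM with no order.

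Within each group, cells can be split by the marker genes of expression states, and of the members with at least 100 UMIs in the states compared, Ndrg1 differed most between them. In A cells, 1308 had at least 2 UMIs of S100g and Epcam and at least 3 times as many as of Tnc and Acta2, and 1184 met the reverse. Ndrg1 was at 39.1 CPM (34.4 to 44.1) in the S100g and Epcam cells and 12.6 CPM (10.1 to 15.6) in the Tnc and Acta2 cells, a ratio of 3.09 (2.41 to 3.99). Ankrd37 was at 17.9 and 9.45 CPM (1.89, 1.39 to 2.60), Bnip3 at 14.7 and 8.72 CPM (1.68, 1.21 to 2.36) and Vegfa at 50.3 and 36.3 CPM (1.38, 1.17 to 1.64). Hif1a was at 152 and 177 CPM and Egln1 at 46.5 and 57.0 CPM, with ratios of 0.863 (0.793 to 0.939) and 0.816 (0.7004 to 0.9498), so the regulator and its main sensor leaned the other way. Egln3 (1.02) and P4ha1 (0.987) had intervals that include 1. The S100g and Epcam cells had a median of 4626 UMIs against 5284.5, a mitochondrial share of 3.47% against 3.07%, and an S-phase list at 1244 against 1542 CPM. The part of these in the A results was not tested. Ndrg1 alone of 8 members was at least 2-fold higher in the S100g and Epcam cells, and 0 in the Tnc and Acta2 cells, beside 2.89% and 1.05% of 9062 features. When at least 4 state UMIs were required, Ndrg1, Ankrd37 and Bnip3 were all past 2-fold, at 2.01, 1.28 and 1.16 on the log2 scale. No share of all features under that stricter rule stands beside these, so they are not read as a result about the members.

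In B cells, 541 cells were marked by Krt14 and Sprr1a, genes of squamous epithelium, and 4714 by Areg, Btc and Cftr. Ndrg1 was at 41.4 CPM (34.9 to 48.8) in the former and 17.2 CPM (15.7 to 18.8) in the latter, a ratio of 2.41 (1.99 to 2.91). Vegfa was at 22.3 and 14.7 CPM (1.51, 1.17 to 1.93), and Ankrd37 at 7.25 and 4.68 CPM (1.55, 0.967 to 2.39). Of 7 members with at least 100 UMIs in the 2 states, 1 was at least 2-fold higher in the Krt14 and Sprr1a cells, beside 1.83% of 10137 features. In the other direction it was 0 of 7, beside 0.562%. Adm had 4 UMIs in the 541 cells and 1 in the 4714, which is 1.16 CPM (0.316 to 2.97) and 0.0352 CPM (0.000891 to 0.196). Hif1a, Egln1, Bnip3, Egln3 and P4ha1 had ratios between 0.921 and 1.26, all with intervals that include 1. When at least 4 state UMIs were required, Bnip3 was past 2-fold toward the Areg, Btc and Cftr cells, at -1.35 on the log2 scale, from few UMIs. It too has no share of all features beside it. The Krt14 and Sprr1a cells had a median of 6097 UMIs against 5530.5, and the G2/M list was at 1779 against 2434 CPM.

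**Figure D5:**
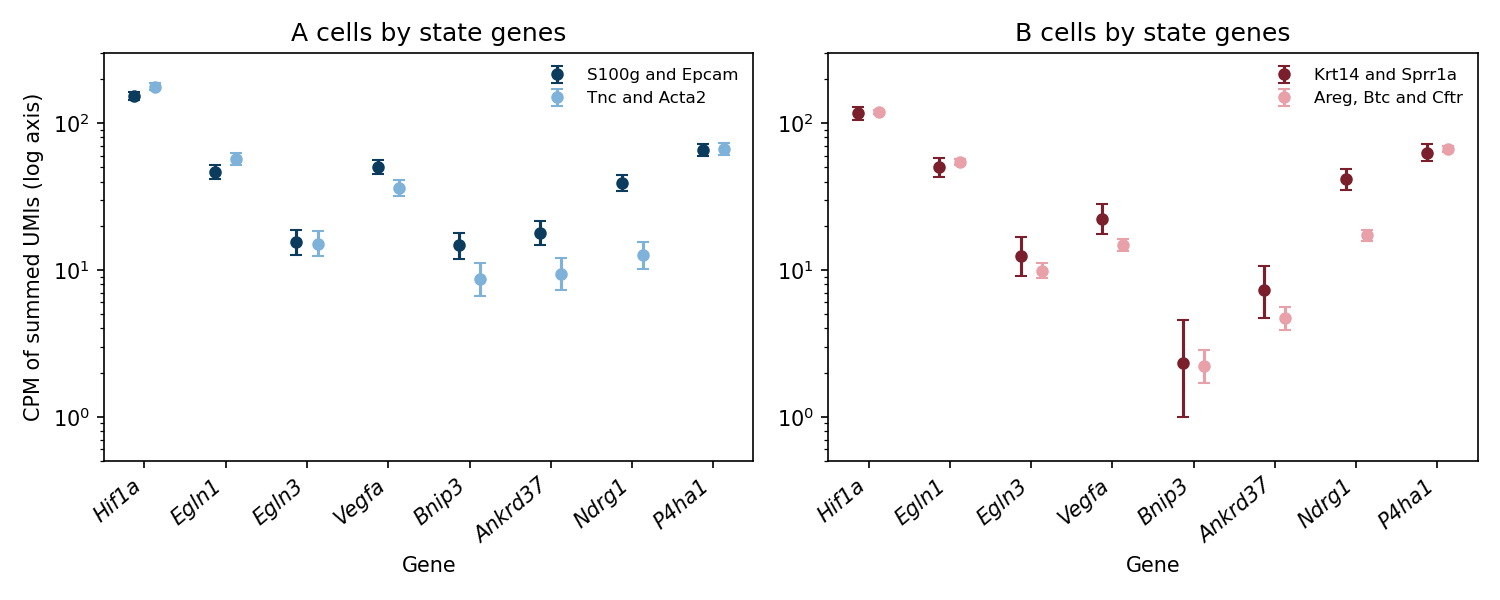
Level of 8 members in cells of 2 states of A cells (left) and of B cells (right), as CPM of summed UMIs on a log axis with exact Poisson 95% intervals. Ndrg1 was 3.09-fold higher in the S100g and Epcam cells among A cells and 2.41-fold higher in the Krt14 and Sprr1a cells among B cells. P4ha1 was nearly level across states, and Hif1a was at 152 and 177 CPM in the A states and at 117 and 119 CPM in the B states.

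The cell cycle moved with several members. Cells were ranked by the summed UMIs of a G2/M list and divided into 3 equal groups. From lowest to highest, Ndrg1 was at 27.0, 14.7 and 12.8 CPM in A cells (0.475, 0.368 to 0.610) and at 25.4, 18.1 and 14.2 CPM in B cells (0.558, 0.445 to 0.698). In A cells Ankrd37 was at 15.1 and 8.51 CPM (0.563, 0.407 to 0.773), Bnip3 at 12.2 and 7.83 CPM (0.645, 0.455 to 0.907) and P4ha1 at 75.5 and 59.4 CPM (0.787, 0.693 to 0.894). Egln1 (0.780, 0.676 to 0.901) and Hif1a (0.818, 0.754 to 0.888) were lower there as well. The intervals of Vegfa (0.888) and Egln3 (0.819) include 1. No share of all features stands beside the cell cycle ratios, so they are not read as particular to the members. In B cells Ankrd37 (0.956) and Bnip3 (0.909) had intervals that include 1, and Hif1a was at 0.901 (0.825 to 0.984). In both groups Ndrg1 was highest in the cells with the fewest G2/M transcripts.

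Ranked by S-phase genes instead, Egln1 was higher in the cells with more of them, at 47.0 and 57.3 CPM in A (1.22, 1.06 to 1.41) and 50.4 and 61.9 CPM in B cells (1.23, 1.08 to 1.39). Vegfa was lower there in A cells, at 47.4 and 33.1 CPM (0.698, 0.591 to 0.824), and at 17.7 and 15.6 CPM in B cells (0.885, 0.699 to 1.12). Ndrg1 was at 26.3 and 15.1 CPM in A and 22.9 and 16.9 CPM in B cells. In A cells Bnip3 (0.652, 0.463 to 0.913) and Ankrd37 (0.721, 0.529 to 0.980) were lower as well. Hif1a went opposite ways, at 0.913 (0.841 to 0.992) in A and 1.15 (1.06 to 1.26) in B cells.

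Mitochondrial share also moved with members, most with Ankrd37 and Ndrg1 in A cells. Ankrd37 was at 7.97 CPM in the A cells of lowest and 16.1 CPM in those of highest share (2.02, 1.46 to 2.81), and Ndrg1 at 14.4 and 24.4 CPM (1.69, 1.33 to 2.17). In B cells the same ratios were 1.19 (0.775 to 1.82) and 1.26 (1.02 to 1.56). In A cells Bnip3 was at 8.51 and 12.2 CPM (1.43, 1.02 to 2.01) and Egln3 at 13.2 and 18.0 CPM (1.36, 1.04 to 1.78). Vegfa was at 43.2 and 42.5 CPM in A cells (0.985, 0.840 to 1.15) and at 15.2 and 20.05 CPM in B cells (1.32, 1.05 to 1.67). Whether these shares reflect the state of the cells or of their RNA was not tested.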

How the data were processed

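Droplet RNA sequencing was done on 1 library of pooled KPCY clones 76 and 84. The deposited matrix holds whole-number UMI counts per gene and barcode, not normalized, and the submitters' processing notes name Cell Ranger 8.0.1 and build GRCm39. Whether the barcodes were filtered is not given in the sources used here. The values were computed from these counts with Python 3.11.15, numpy 2.4.6, scipy 1.17.1 and scanpy 1.11.5. Counts were summed over A and over B cells and divided by the group's total (CPM). Intervals are exact Poisson, exact conditional (ratios) and Clopper-Pearson (shares), at 95%. Each cell was thinned at random to 3000 UMIs for shares, co-expression and scores, which left out 410 A and 109 B cells. Doublets were kept. Scrublet marked 778 of 21361 cells (3.64%), and their removal is an alternative. Steps were checked on simulated data. The members and gene lists were chosen with earlier results of these data known.

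Named genes were all members, list genes past 2-fold, the 3 with the most UMIs of each list, the 10 features of at least 50 CPM most like the summed targets, and the 2 most like each member. Overlapping genes were found in GENCODE M21, and Ufsp2, the antisense genes and some relatives were named after their values were seen. Aldoa and Ddit3 have 2 rows each and were not counted. Values of some genes that the rule names are not reported here. Alternatives were other cell filters, marker rules, scalings, low-value filters, folds, thinning depths, scores and state rules. Those added after seeing the data were the minimum of 100 UMIs, the cells within a range of depth or mitochondrial share, the lowest mitochondrial part of each group, and the scores without or within 1 A state.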

Additional observations from a re-analysis of the deposited data

Results flagged for a closer look

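Member UMIs were also counted in barcodes outside both groups, where they were above the level that 3 UMIs give. In the 3966 cells with under 2 marker UMIs the 10 genes summed to 348.446 CPM, and in the 643 cells with markers of both kinds to 309.069 CPM. The sums were 369 CPM in A and 293 CPM in B cells. Vegfa was at 33.1 and 25.8 CPM in these 2 sets, between its 17.1 CPM in B and 40.0 CPM in A cells, and Bnip3 at 6.52 and 7.94 CPM, likewise between the groups. In the 817 barcodes removed by the cell filter the sum was 407.429 CPM, with Ndrg1 at 36.2 CPM and P4ha1 at 89.4 CPM, both above the levels in A and B cells.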

How the results depend on the processing

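The log2 ratios of A over B for Vegfa ran from 1.03 to 1.35 over 11 alternatives, for Bnip3 from 1.91 to 2.50 and for Ankrd37 from 0.72 to 1.29. No sign changed for these 3. The 13 sign changes among 110 values were of genes within 2-fold. The count of members higher in A cells, 3, was 0 with at least 50 CPM, a filter that leaves 3 members. It was 2 under the strict cell filter, under median-ratio scaling and in cells of 1.5 to 3% mitochondrial share, each time through Ankrd37. It was also 2 with at least 10 CPM, which leaves out Bnip3, and 4 with at least 5 marker UMIs, through Adm. Pathway-list genes higher in A cells, 1 in the main analysis, were 2 with Scrublet-marked barcodes removed, with 10 times the other markers and with the mean of per-cell CPM, and 16 with at least 100 UMIs. Those higher in B cells, 4, were 7 under median-ratio scaling and 9 with at least 100 UMIs. The lists held 7, 10, 10, 5 and 5 genes with at least 50 CPM. With at least 100 UMIs they held 15, 17, 27, 17 and 11. Of all features with at least 50 CPM, 7.6% were higher in A and 6.68% in B cells. With at least 100 UMIs, 13.2% and 9.34% were. Members at least 1.5-fold higher in the highest score group of B cells, 2 (Ndrg1 and the sparsely counted Bnip3), were 1 without glycolysis genes and 1 at 5000 UMIs, where Ndrg1 was lost both times (1.15 and 1.32). Bnip3 in B cells was 2.43 in the main analysis, 1.73 and 1.78 in these, and 1.501 with Scrublet-marked barcodes removed. In A cells, 4 such members were 3 without glycolysis genes, with Scrublet-marked barcodes removed and without the S100g and Epcam cells. Within the Tnc and Acta2 cells alone they were 4, but with Vegfa (1.53) in and Ndrg1 (1.28) out, and with Egln3 at 8.54 (2.03 to 76.2). Members 2-fold apart between states, 1 in each group, were 3 in A and 2 in B cells with at least 4 state UMIs, the second in B being Bnip3 (-1.35, opposite to Ndrg1). No share of all features under that rule stands beside these 2 counts. Cells of 4000 to 6000 UMIs, the parts of lowest mitochondrial share within each group (medians 2.62% in A and 1.56% in B, so not matched), the Scrublet removal and the loose filter left the count of members higher in A cells at 3. The cause of these shifts was not tested beyond the number of genes each filter leaves. Adm and Car9 rest on 21 and 27 UMIs, so their ratios were not resolved at this depth. No paired analysis was possible because there is 1 library and the result comes from no test.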

Other observations

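Targets of ATF4, the transcription factor of the amino acid and unfolded protein responses, share genes of stress with the HIF targets and were listed separately. Of 11 with 1 row in the matrix, 5 had at least 50 CPM, 0 was 2-fold apart in either direction (beside 7.6% of all such features higher in A and 6.68% in B cells), and their median log2 ratio of A over B was -0.23. Phgdh, of serine synthesis, was at 594 CPM in A and 665 CPM in B cells, Cebpb at 81.9 and 134 CPM and Atf4 itself at 89.2 and 104.7 CPM. With at least 100 UMIs, 3 of 11 were at least 2-fold higher in A and 0 in B cells, beside 13.2% and 9.34% of all such features. They were Trib3 (3.502, 2.55 to 4.87), Chac1 (2.33, 1.73 to 3.15) and the cystine transporter gene Slc7a11 (2.96, 2.66 to 3.29). Nupr1, the gene most like the summed targets, was at 185 CPM in A and 59.1 CPM in B cells, a ratio of 3.12 (2.996 to 3.26).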
